A study of Mus musculus with 88 samples.

Results

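Ifnb1, the gene of interferon beta, and 7 genes of the interferon regulatory factor family (Irf1, Irf2, Irf3, Irf5, Irf7, Irf8 and Irf9) were followed in RAW 264.7 cells, a mouse macrophage line made by transformation with Abelson leukaemia virus. They were chosen by name, with earlier results of these data known. Every gene on the named list with a probe in the array's probe-to-gene table, under its current symbol, was kept. All 8 were found among the 10518 named genes measured, each with 1 probe. Cells received LPS (lipopolysaccharide, a bacterial cell wall component) together with isoproterenol (ISO, an agonist of beta-adrenergic receptors), LPS together with prostaglandin E2 (PGE2), LPS alone, ISO alone or PGE2 alone, for 1, 2 or 4 h. LPS was given at 100 ng/ml, ISO at 50 nM and PGE2 at 10 µM. The labels name 100 pM lipid binding protein beside LPS for the cells given LPS alone and do not name it for the combinations.

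Each RNA was hybridised against time-matched RNA from medium cultures, on custom Agilent oligonucleotide arrays with 2 colours. Every comparison was run on 2 arrays with the dyes exchanged, called a set here, and each of the 15 treatment and time groups holds 3 sets, except PGE2 at 1 h with 2. Nothing in the labels says that the sets are separate cultures, so every p-value below reflects variation among sets that may be no more than technical. Bulk RNA of 1 line cannot tell fewer responding cells from less RNA per cell.

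Interferon beta is the type I interferon that macrophages make after Toll-like receptor 4 recognises LPS. The adaptor TRIF leads through the kinases Tbk1 and Ikbke to the latent factor IRF3, which enters the nucleus and acts with NF-kB at the Ifnb1 promoter. Secreted interferon then signals through its receptor to STAT2 and IRF9, which act together to raise a large set of antiviral genes, Irf7 among them.

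All values are log2 ratios of treated over medium RNA, as the mean of the 2 arrays of a set, ± SD over sets. The table deposited by the authors does not state which channel is on top. Treated over medium is therefore the likely direction: with it, the median of 17 genes known to be induced by LPS lay between 2.05 and 3.34 on all 18 arrays of LPS alone. The scaling and centring applied before deposit are unknown as well. Every array had a median of 0, and 10.9 to 45.7% of its values were exactly 0, whose meaning is unknown. The largest absolute value was 6.64, the log2 of 100. Over all probes the 2 arrays of a set correlated at 0.20 to 0.85 in the 27 sets with LPS, and at -0.58 to 0.32 in the 17 sets without it, below 0 in 10 of those. Probes of the macrophage markers Adgre1, Csf1r, Cd68, Fcgr1 and Spi1 gave a value other than 0 on all 88 arrays, while Lyz2, a defining macrophage gene, did so on only 6 arrays. The neutrophil genes Ly6g, Mpo, Elane and S100a8 and the plasmacytoid dendritic cell genes Tcf4 and Ccr9 also did so on all 88. Such values therefore do not tell cell types apart, and ratios give no level. Of 8 macrophage genes measured, 4 were called higher and 1 lower at 4 h in each LPS-containing treatment, beside 30.0 to 31.6% of all genes. Of the markers of other cell types, none of 4 B cell and 5 fibroblast genes measured was called by limma in any treatment, with at most 1 of either list at an unadjusted p under 0.05. Of 4 T cell genes Cd4 (0.11 to 0.17) and Cd8a (-0.18), and of 5 neutrophil genes Ly6g (0.13 to 0.18), were called in some groups with LPS. Of the 2 plasmacytoid dendritic cell markers measured, Ccr9 was called higher in the LPS-containing treatments at 1 h (0.36 to 0.42), 2 h (0.72 to 0.75) and 4 h (0.83 to 0.91). Tcf4 was called lower there at 2 h (-0.25 to -0.21) and higher at 4 h (0.38 to 0.50). The part of such cells in the results was not tested.

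The start regions of 5 members are shown because 4 of these genes changed most (Ifnb1, Irf1, Irf7, Irf8) and because that of Irf2, which changed little, holds the most motif matches. Each runs from 250 bases before to 50 bases after the annotated start, on the gene's strand, from RefSeq on build GRCm38.p6, where all 8 members matched. Capitals mark matches, on either strand, to 5 motifs: the short IRF motif AANNGAAA, the interferon-stimulated response core GAAANNGAAA, the NF-kB form GGGNNNTTCC, the STAT motif TTCNNNGAA and TGACG, a half-site of the cyclic AMP response element. Every GAAANNGAAA match also contains an AANNGAAA match.
Ifnb1, chr4:88522745-88523044, minus strand: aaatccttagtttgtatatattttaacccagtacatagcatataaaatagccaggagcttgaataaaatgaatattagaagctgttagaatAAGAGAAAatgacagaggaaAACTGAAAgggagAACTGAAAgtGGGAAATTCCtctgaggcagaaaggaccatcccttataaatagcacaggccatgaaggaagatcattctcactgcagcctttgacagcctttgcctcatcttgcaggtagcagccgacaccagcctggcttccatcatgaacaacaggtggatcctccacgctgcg
Irf1, chr11:53769764-53770063, plus strand: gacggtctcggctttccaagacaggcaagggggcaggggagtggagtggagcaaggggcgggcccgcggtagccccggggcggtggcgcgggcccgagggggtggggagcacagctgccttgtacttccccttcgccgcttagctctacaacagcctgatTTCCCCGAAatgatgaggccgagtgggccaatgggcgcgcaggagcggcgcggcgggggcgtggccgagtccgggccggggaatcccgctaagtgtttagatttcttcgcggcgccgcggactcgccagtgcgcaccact
Irf7, chr7:141266375-141266674, minus strand: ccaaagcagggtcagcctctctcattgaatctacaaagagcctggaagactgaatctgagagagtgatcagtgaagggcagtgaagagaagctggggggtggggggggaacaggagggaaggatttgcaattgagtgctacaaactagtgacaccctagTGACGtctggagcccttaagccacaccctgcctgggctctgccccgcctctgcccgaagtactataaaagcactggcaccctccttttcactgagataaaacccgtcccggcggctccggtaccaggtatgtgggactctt
Irf8, chr8:120736108-120736407, plus strand: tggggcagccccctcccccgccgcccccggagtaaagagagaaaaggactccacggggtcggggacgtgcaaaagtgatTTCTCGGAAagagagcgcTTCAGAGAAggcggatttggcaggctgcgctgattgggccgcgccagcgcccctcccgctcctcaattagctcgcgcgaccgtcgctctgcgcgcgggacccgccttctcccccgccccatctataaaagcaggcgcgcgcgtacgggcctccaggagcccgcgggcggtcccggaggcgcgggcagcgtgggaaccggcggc
Irf2, chr8:46739495-46739794, plus strand: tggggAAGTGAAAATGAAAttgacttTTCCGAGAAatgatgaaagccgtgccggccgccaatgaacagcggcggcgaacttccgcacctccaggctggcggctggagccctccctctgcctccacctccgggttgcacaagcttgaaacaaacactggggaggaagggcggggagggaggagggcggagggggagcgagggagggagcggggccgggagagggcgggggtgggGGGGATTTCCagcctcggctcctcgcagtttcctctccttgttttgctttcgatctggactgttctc

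The Ifnb1 window held 3 short IRF motifs (AAGAGAAA, then AACTGAAA at 2 places) followed by the NF-kB form GGGAAATTCC. The Irf1 window held the STAT motif TTCCCCGAA, and that of Irf8 held 2 STAT motifs, TTCTCGGAA and TTCAGAGAA. The Irf7 window held TGACG. In the Irf2 window AAGTGAAA overlapped the response core GAAAATGAAA, which contains AAATGAAA, and TTCCGAGAA and GGGGATTTCC lay further along. None of the 5 motifs was found in the windows of Irf3, Irf5 and Irf9, or in the further windows annotated for Irf1 and Irf8, which says only that these letters are not there. Among all 32851 windows, 23.9% held the short IRF motif, 3.44% the response core, 5.56% the NF-kB form, 8.30% the STAT motif and 20.8% TGACG. A match is a description of sequence and was not tested as a binding site.

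In the LPS-containing treatments Ifnb1 was called higher from 1 h. Irf9 was called higher from 2 h, as was Irf1 except with LPS plus PGE2. Irf7 and Irf8 were called higher only at 4 h. All of these genes had their highest means at 4 h. No 2 h minus 1 h difference of a member was called, so the calls do not order the members between 1 and 2 h. Ifnb1 was not called with ISO or PGE2 alone, and Irf8 was the only member called with either, lower at 2 h with both. A member counts as called at an adjusted p under 0.05 in limma, a linear model across all genes, with Benjamini-Hochberg adjustment over the 10518 genes. With LPS plus ISO, 1 of 8 members was called at 1 h (7.43% of all genes), then 4 at 2 h (13.9%) and finally 7 at 4 h (30.0%), all higher except Irf8 at 2 h. With LPS plus PGE2 the members called were 1 at 1 h (7.68% of all genes), 3 at 2 h (13.3%) and 6 at 4 h (31.6%), again all higher except Irf8 at 2 h. LPS alone gave 1 of 8 at 1 h (9.48% of all genes), 4 at 2 h (15.9%) and 6 at 4 h (30.7%), all higher. Counted in the higher direction alone, all genes stood at 14.4% for LPS plus ISO, 15.2% for LPS plus PGE2 and 14.3% for LPS at 4 h. The members were called higher more often than the whole array at that time. They were chosen with earlier results of these data known, and their probes read other than 0 on 78 to 88 of 88 arrays. That excess is therefore a description only. At 1 h a single member, Ifnb1, set the count. The median over the 8 members at 4 h was 0.94 with LPS plus ISO, 0.92 with LPS plus PGE2 and 1.16 with LPS, and the median over all genes was 0.00 in each.

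The counts rest on a spread shared by all groups. With only the sets of a comparison in the fit, 5 of these calls were left: Ifnb1, Irf7 and Irf8 with LPS at 4 h, and Irf7 with each combination at 4 h.

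**Figure D1:**
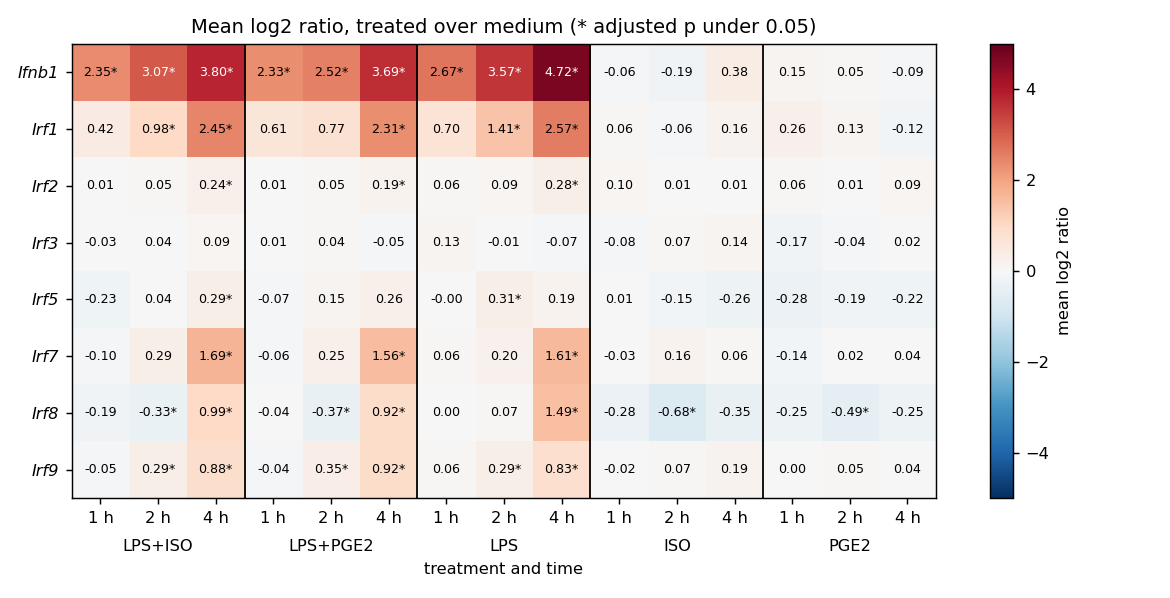
Mean log2 ratio of treated over medium for the 8 genes (rows) in each treatment and time (columns), with a colour scale symmetric around 0. The columns with LPS darken with time for Ifnb1, Irf1, Irf7 and Irf9. Irf8 in the combinations lies below 0 at 2 h and above 0 at 4 h. Irf3 stays within -0.17 and 0.14 in all 15 groups.

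Ifnb1 had the highest ratios of the 8 genes. In cells given LPS plus ISO its ratios in sets 1, 2 and 3 were 2.09, 1.42 and 3.53 at 1 h, 1.32, 3.24 and 4.64 at 2 h, and 1.93, 4.83 and 4.64 at 4 h. With LPS plus PGE2 they were 1.92, 1.58 and 3.49 at 1 h, 0.27, 2.87 and 4.41 at 2 h, and 1.77, 4.64 and 4.66 at 4 h. With LPS alone they were 2.57, 1.45 and 4.00 at 1 h, 2.76, 2.96 and 4.99 at 2 h, and 3.79, 5.41 and 4.97 at 4 h. Every set with LPS lay above 0, the combinations overlapped LPS alone at every time, and set 1 of each combination was its lowest at 2 and 4 h.

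The Ifnb1 mean at 4 h was 3.80 ± 1.63 with LPS plus ISO (13.9-fold, limma adjusted p = 9.89e-06, n = 3), 3.69 ± 1.67 with LPS plus PGE2 (12.9-fold, adjusted p = 1.53e-05) and 4.72 ± 0.84 with LPS alone (26.4-fold, adjusted p = 2.28e-07). At 2 h the means were 3.07 ± 1.67 (limma adjusted p = 0.000548), 2.52 ± 2.09 (adjusted p = 0.00467) and 3.57 ± 1.23 (adjusted p = 7.27e-05), in the same order of treatments. Already at 1 h Ifnb1 stood 5.09-fold, 5.03-fold and 6.38-fold above medium with LPS plus ISO, LPS plus PGE2 and LPS alone, with limma adjusted p of 0.0156, 0.0159 and 0.00467. The early calls rested on set 3, since without it the adjusted p at 1 h was 0.235, 0.27 and 0.103, and at 2 h 0.0514 with LPS plus ISO and 0.231 with LPS plus PGE2. Leaving out set 1 also ended the 1 h calls of the combinations, at 0.0814 with LPS plus ISO and 0.0616 with LPS plus PGE2, and so did taking arrays with treated RNA in Cy5 alone (0.0939 and 0.0803). All 4 h calls of Ifnb1 were kept without any set in turn.

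The Ifnb1 probe was listed at 0 on 10 of 88 arrays. In set 1 of LPS plus ISO at 2 and 4 h, and of LPS plus PGE2 at 2 and 4 h, the array with treated RNA in Cy5 was listed at 0, while its dye-exchanged partner read 2.64, 3.85, 0.54 and 3.53. With zeros taken as missing, the 4 h means became 4.44 ± 0.52 (21.7-fold) with LPS plus ISO and 4.28 ± 0.65 (19.4-fold) with LPS plus PGE2, nearer to the 4.72 of LPS alone, whose arrays had no 0. The corresponding 2 h means became 3.51 ± 1.03 and 2.61 ± 1.95. Set 1 of LPS plus PGE2 at 2 h had 38.9 and 41.6% of its probes at 0, yet its 17 LPS-induced genes had medians of 2.71 and 2.83.

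**Figure D2:**
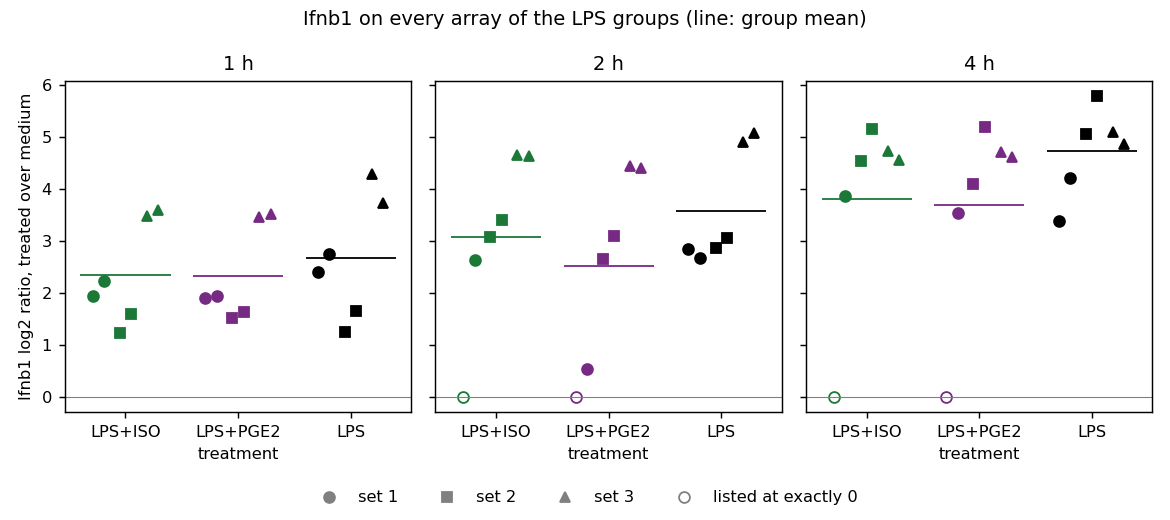
Ifnb1 log2 ratio of treated over medium on every array of the LPS-containing groups, by treatment and time, with a symbol for each set, open symbols for values listed at 0 and a line at each group mean. The 4 arrays listed at 0 are all of set 1 of the combinations at 2 and 4 h.

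The Ifnb1 means at 1, 2 and 4 h were -0.06, -0.19 and 0.38 with ISO alone and 0.15, 0.05 and -0.09 with PGE2 alone. None was called. The 95% intervals were wide, from -0.90 to 1.67 for ISO and from -1.37 to 1.20 for PGE2 at 4 h and bound the change only loosely. Of the 8 members, ISO alone called 0 at 1 h (0.903% of all genes), 1 at 2 h (1.71%) and 0 at 4 h (3.36%), and PGE2 alone 0 (0.323%), 1 (0.456%) and 0 (1.14%). At an unadjusted limma p under 0.05 these counts were 1, 1 and 3 for ISO and 1, 1 and 2 for PGE2. Of the 10518 genes, 1037, 1092 and 1688 passed that for ISO and 1007, 574 and 1006 for PGE2.

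Irf1 encodes an activator first described at the Ifnb1 promoter and induced itself by interferons and inflammatory signals. At 1 h its ratios spread from 0.17 to 1.42 over the sets with LPS, and no group was called, with means of 0.42 ± 0.43 with LPS plus ISO, 0.61 ± 0.36 with LPS plus PGE2 and 0.70 ± 0.63 with LPS alone. At 2 h its ratios in sets 1, 2 and 3 were 1.12, 0.04 and 1.78 with LPS plus ISO, 0.09, 0.43 and 1.80 with LPS plus PGE2 and 1.67, 0.48 and 2.08 with LPS alone. Set 3 was highest in each treatment, and the sets of the 3 treatments overlapped. LPS alone was called at 2 h (2.66-fold, limma adjusted p = 0.000649) and so was LPS plus ISO (1.98-fold, adjusted p = 0.0209). LPS plus PGE2 was not (0.77 ± 0.91, adjusted p = 0.0885). The LPS plus ISO call was lost without set 1 (0.138) or set 3 (0.419), and on arrays with treated RNA in Cy3 alone, where the mean was 0.54 (0.322). LPS plus PGE2 was called without set 1 (0.0408). In set 1 of LPS plus ISO the 2 arrays read 2.24 and 0.01.

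By 4 h every set with LPS had an Irf1 ratio between 1.68 and 3.20. The means were 2.45 ± 0.60 with LPS plus ISO (5.47-fold, limma adjusted p = 3.56e-08), 2.31 ± 0.56 with LPS plus PGE2 (4.95-fold, adjusted p = 1.13e-07) and 2.57 ± 0.63 with LPS alone (5.96-fold, adjusted p = 1.23e-08). Set 1 was lowest in all 3. ISO alone (0.06, -0.06 and 0.16 at 1, 2 and 4 h) and PGE2 alone (0.26, 0.13 and -0.12) left Irf1 uncalled.

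Irf7, the factor that drives the later interferon alpha genes and is itself induced by interferon, stayed near medium for 2 h and then rose in all 9 sets with LPS. At 4 h its ratios in sets 1, 2 and 3 were 1.87, 1.43 and 1.79 with LPS plus ISO, 1.69, 1.30 and 1.69 with LPS plus PGE2, and 1.49, 1.42 and 1.92 with LPS alone. The treatments overlapped, and these sets spread far less than those of Ifnb1. The means were 1.69 ± 0.24 (3.24-fold, limma adjusted p = 2.23e-12), 1.56 ± 0.23 (2.95-fold, adjusted p = 1.49e-11) and 1.61 ± 0.27 (3.06-fold, adjusted p = 6.44e-12), in that order. At 2 h the means were 0.29 ± 0.17, 0.25 ± 0.22 and 0.20 ± 0.16, none of them called.

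The Irf7 response was larger at 4 h than at 2 h. The difference of the 4 h and 2 h responses was 1.40 with LPS plus ISO, 1.31 with LPS plus PGE2 and 1.41 with LPS alone, each called (limma adjusted p = 1.28e-06, 4.17e-06 and 1.03e-06). The 2 h minus 1 h differences were not called for any member in any treatment, against 1.58% of all genes with LPS plus ISO, 1.53% with LPS plus PGE2 and 2.05% with LPS. At an unadjusted limma p under 0.05 they counted 2, 2 and 1 of 8 members, beside 1051, 1150 and 1322 of the 10518 genes. Between 4 and 2 h, 4 members were called with LPS plus ISO (11.1% of all genes), 4 with LPS plus PGE2 (10.6%) and 3 with LPS alone (11.0%), all higher. With ISO alone and PGE2 alone no time difference of a member was called, beside 0.019 and 0.171% of all genes for ISO and 0.0% for PGE2. At an unadjusted limma p under 0.05, 1 of 8 members passed for ISO at each step, beside 680 and 1048 of the 10518 genes. For PGE2 0 members passed it, beside 452 and 410 of the 10518 genes.

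Irf9, which binds DNA together with STAT2 in interferon signalling, was higher by 4 h in each LPS-containing treatment. Its ratios at 4 h in sets 1, 2 and 3 were 0.65, 1.10 and 0.90 with LPS plus ISO, 0.65, 1.15 and 0.97 with LPS plus PGE2 and 0.64, 1.08 and 0.79 with LPS alone. Set 1 was lowest and set 2 highest in all 3 treatments. The means were 0.88 ± 0.22 (1.85-fold, limma adjusted p = 1.43e-09), 0.92 ± 0.25 (1.89-fold, adjusted p = 5.81e-10) and 0.83 ± 0.23 (1.78-fold, adjusted p = 4.62e-09).

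Irf9 was also called at 2 h, at 1.22-fold with LPS plus ISO, 1.27-fold with LPS plus PGE2 and 1.22-fold with LPS alone. These small changes did not survive the loss of set 3, without which the limma adjusted p was 0.428, 0.25 and 0.395. Without set 1 it was 0.116 with LPS plus ISO and 0.164 with LPS alone. On arrays with treated RNA in Cy5 alone no treatment was called (0.107, 0.0522 and 0.161), and the Cy5 array was the higher in only 2 of 44 sets for this probe. The 4 h minus 2 h difference was 0.59 with LPS plus ISO, 0.57 with LPS plus PGE2 and 0.55 with LPS alone, all called. The last was lost without set 2 of LPS at 2 h (0.0663).

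**Figure D3:**
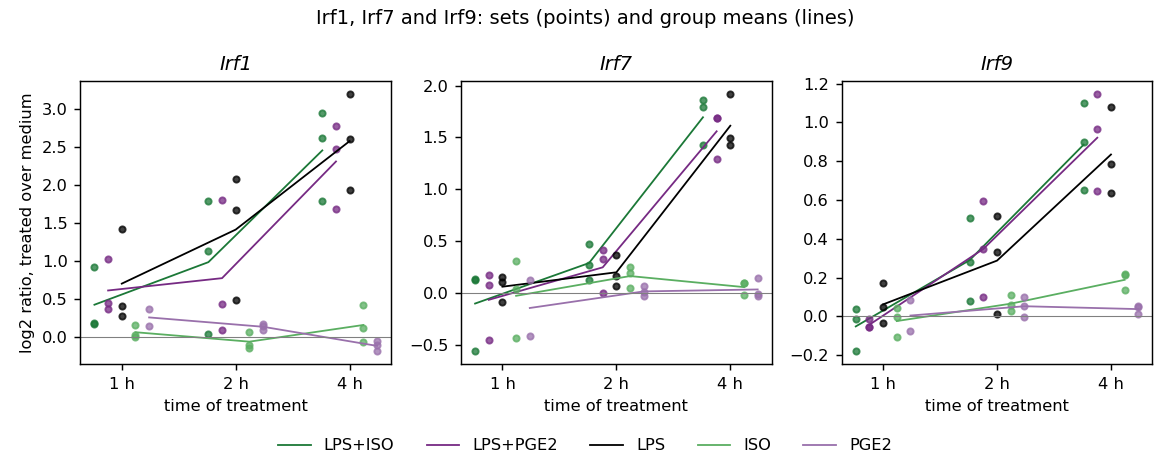
Log2 ratio of treated over medium for Irf1, Irf7 and Irf9 against time (1, 2 and 4 h), with a point for each set and a line through the means of each treatment. The LPS-containing treatments rise together at 4 h, Irf7 to 1.56 to 1.69 and Irf9 to 0.83 to 0.92, while ISO and PGE2 alone stay near 0.

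Irf8, a factor needed for macrophage development that pairs with PU.1 and other IRFs, was the only member called with ISO or PGE2 alone. With ISO alone at 2 h its ratios in sets 1, 2 and 3 were -0.67, -0.41 and -0.96, a mean of -0.68 ± 0.27 (1.60-fold lower, limma adjusted p = 0.000279). With PGE2 alone at 2 h they were -0.46, -0.33 and -0.69, a mean of -0.49 ± 0.18 (1.41-fold lower, adjusted p = 0.0338). All 12 arrays behind these values were below 0, in both dye orientations.

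The ISO call at 2 h was kept without any set in turn and in each dye orientation alone. The PGE2 call was lost without set 1, 2 or 3 (adjusted p = 0.151, 0.067 and 0.446), and on arrays with treated RNA in Cy5 alone (0.0579). With only their own sets in the fit, neither was called (0.306 for ISO and 0.329 for PGE2). At the other times the Irf8 means were also below 0 without being called: -0.28 ± 0.18 at 1 h and -0.35 ± 0.07 at 4 h with ISO (limma adjusted p = 0.35 and 0.0836), and -0.25 ± 0.13 (n = 2) and -0.25 ± 0.14 with PGE2 (limma adjusted p = 0.571 and 0.456). Every one of these sets was below 0. Means below 0 at these times were not particular to Irf8. On Cy3 and Cy5 arrays Irf5, also uncalled, read -0.22 and -0.33 with PGE2 at 1 h and -0.13 and -0.31 at 4 h. With ISO it read 0.02 and -0.00 at 1 h and -0.21 and -0.31 at 4 h.

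Irf8 was also below medium at 2 h when LPS was combined with either agent. Its ratios in sets 1, 2 and 3 were -0.08, -0.24 and -0.68 with LPS plus ISO, -0.20, -0.29 and -0.61 with LPS plus PGE2, and 0.31, 0.01 and -0.11 with LPS alone. The sets with LPS plus PGE2 did not overlap those with LPS alone, and those with LPS plus ISO did. Against medium both combinations were called lower at 2 h, LPS plus ISO by 1.26-fold (limma adjusted p = 0.0466) and LPS plus PGE2 by 1.29-fold (adjusted p = 0.0242). LPS alone was at 0.07 ± 0.22 (adjusted p = 0.802). The combination calls were lost without set 2 (0.0792 and 0.0581) or set 3 (0.657 and 0.362). They were also lost on arrays with treated RNA in Cy5 alone, where the means were -0.18 and -0.20 (adjusted p = 0.459 and 0.386).

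By 4 h Irf8 was above medium in every set with LPS. Its ratios in sets 1, 2 and 3 were 0.81, 0.91 and 1.25 with LPS plus ISO, 0.85, 0.76 and 1.14 with LPS plus PGE2, and 1.20, 1.65 and 1.62 with LPS alone. Set 3 of LPS plus ISO overlapped LPS alone, and no set of LPS plus PGE2 did. The means against medium were 0.99 ± 0.23 (1.99-fold, limma adjusted p = 1.08e-08), 0.92 ± 0.20 (1.89-fold, adjusted p = 5e-08) and 1.49 ± 0.25 (2.81-fold, adjusted p = 1.1e-12). The rise between 2 and 4 h was 1.32, 1.29 and 1.42, each called.

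Set against LPS alone at 4 h, Irf8 differed by -0.50 with LPS plus ISO (95% interval -0.82 to -0.17, limma adjusted p = 0.713) and by -0.57 with LPS plus PGE2 (-0.90 to -0.25, limma adjusted p = 0.431). The same-numbered sets differed by -0.38, -0.74 and -0.37 with LPS plus ISO and by -0.35, -0.89 and -0.47 with LPS plus PGE2, lower in 3 of 3 sets each. Neither difference was called without pairing, nor with the set number as a block over all times (limma adjusted p = 0.514 and 0.295). Same-numbered sets of LPS-containing groups deviated together within a time, and with the set as a block within each time both differences were called, at adjusted p = 0.0373 and 0.0148. That last model was chosen after seeing the data. The 2 combinations share the LPS arrays at each time, so these are not independent results. Lipid binding protein is named for LPS alone only, so its part cannot be told apart from that of ISO or PGE2.

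**Figure D4:**
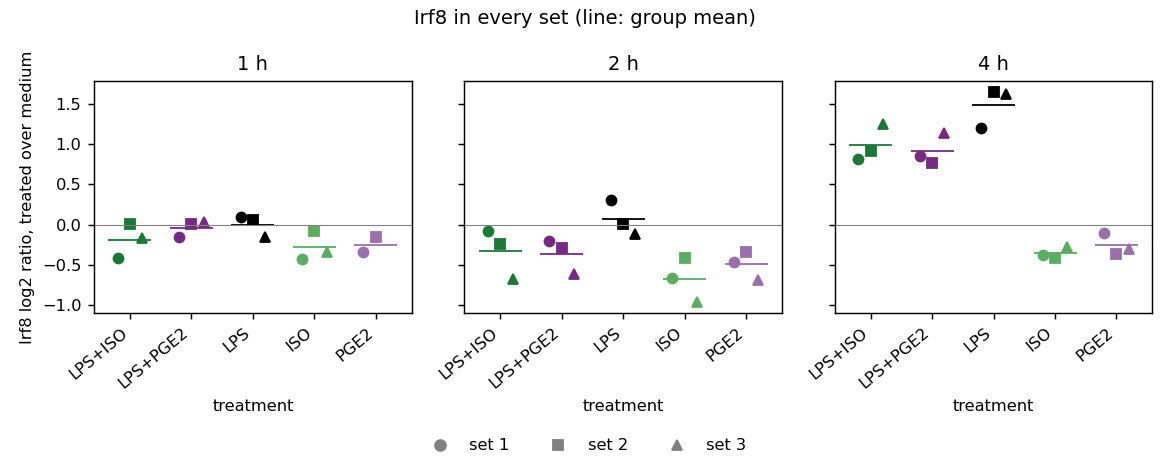
Irf8 log2 ratio of treated over medium for each set, by treatment and time, with the mean of each group. At 2 h the sets with ISO or PGE2 lie between -0.96 and -0.08, and at 4 h LPS alone is at 1.20 to 1.65 and the combinations are at 0.76 to 1.25.

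Irf2, known as an antagonist of Irf1 at shared sites, moved little. Its ratios at 4 h in sets 1, 2 and 3 were 0.14, 0.17 and 0.40 with LPS plus ISO, 0.02, 0.21 and 0.35 with LPS plus PGE2, and 0.16, 0.26 and 0.42 with LPS alone. The means were called at 1.18-fold, 1.14-fold and 1.21-fold (limma adjusted p = 0.000779, 0.00588 and 0.000113). This probe carried a dye difference: the array with treated RNA in Cy5 was higher in 44 of 44 sets. On arrays with treated RNA in Cy3 alone the 4 h means were 0.04, -0.00 and 0.08, with no call, and on those with Cy5 alone they were 0.44, 0.39 and 0.49. Without set 3 the calls of LPS plus ISO (0.0721) and LPS plus PGE2 (0.204) were lost.

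Irf5, which works with the adaptor MyD88 at inflammatory cytokine genes, was called with LPS alone at 2 h (0.31 ± 0.20, 1.24-fold, limma adjusted p = 0.0409) and with LPS plus ISO at 4 h (0.29 ± 0.17, 1.22-fold, adjusted p = 0.0356). The LPS call was lost without set 2 (0.118) or set 3 (0.38), and the LPS plus ISO call without set 1 (0.22) or set 3 (0.216). The LPS call was also lost on arrays with treated RNA in Cy3 alone (0.0717), and the LPS plus ISO call on those with Cy5 alone (0.102). With LPS plus PGE2 at 4 h the mean was 0.26 ± 0.20 (limma adjusted p = 0.0552), and with the set number as a block it was called (adjusted p = 0.0499). All 6 sets with ISO or PGE2 alone at 4 h lay between -0.30 and -0.19, and neither group was called.

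Irf3, the latent factor that is activated by phosphorylation rather than by new RNA, was called in no group. Its sets ranged from -0.45 to 0.53 and its group means from -0.17 to 0.14.

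The labels name lipid binding protein for LPS alone and not for the combinations. In every difference between a combination and LPS alone, the added agent and that protein therefore cannot be told apart. The combinations were compared with LPS alone at matched times for all 8 genes. None was called at any time, against 0.019, 0.0 and 0.0951% of all genes for LPS plus ISO at 1, 2 and 4 h and 0.0, 0.0 and 0.0285% for LPS plus PGE2. At an unadjusted limma p under 0.05 the counts were 0, 1 and 1 of 8 members in each combination, the member being Irf8 each time. Of the 10518 genes, 629, 308 and 351 passed that with LPS plus ISO and 484, 242 and 424 with LPS plus PGE2. For Ifnb1 the 4 h difference was -0.92 with LPS plus ISO (95% interval -2.74 to 0.89) and -1.03 with LPS plus PGE2 (-2.85 to 0.78). Taking zeros as missing brought these to -0.28 and -0.45. By set the Ifnb1 differences at 4 h were -1.86, -0.57 and -0.33 with LPS plus ISO and -2.03, -0.77 and -0.31 with LPS plus PGE2. Without the arrays listed at 0, those of set 1 were 0.06 and -0.26. These intervals are from the fit without pairing and are too wide to show or to bound closely a change of Ifnb1. With the set as a block within time neither Ifnb1 difference was called.

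For Irf7 and Irf9 the intervals were narrower. At 4 h Irf7 differed from LPS alone by 0.08 with LPS plus ISO (-0.30 to 0.46) and by -0.05 with LPS plus PGE2 (-0.43 to 0.33). Irf9 differed by 0.05 (-0.21 to 0.31) and by 0.09 (-0.18 to 0.35). Irf1 differed by -0.12 and by -0.27 (-1.12 to 0.59 for the second). In same-numbered sets its 1 h differences were -0.50, -0.11 and -0.22 with LPS plus ISO and -0.40, 0.09 and 0.04 with LPS plus PGE2. At 2 h they were -0.55, -0.44 and -0.30, and -1.58 (with an array listed at 0), -0.06 and -0.28. At 4 h they were -0.15, -0.25 and 0.03, and -0.25, -0.43 and -0.13. No Irf1 difference was called, without pairing or with the set as a block within time.

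**Figure D5:**
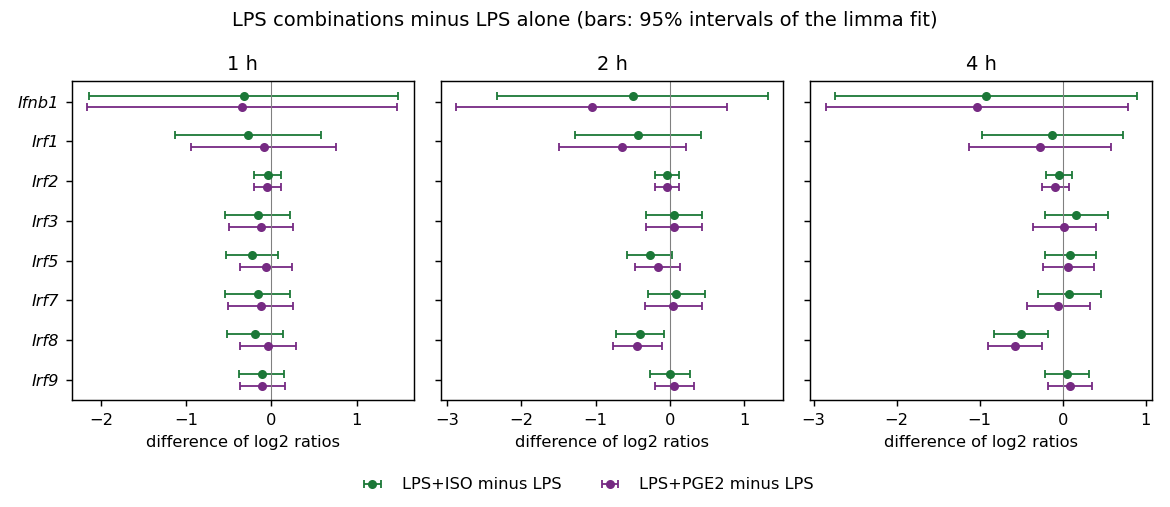
Difference in log2 ratio between each LPS combination and LPS alone for the 8 genes at 1, 2 and 4 h, with 95% limma intervals. Intervals are widest for Ifnb1 (-2.74 to 0.89 for LPS plus ISO at 4 h), and those of Irf8 at 2 and 4 h lie below 0 before adjustment over all genes.

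ISO and PGE2 act on different receptors, the beta-adrenergic and the E prostanoid receptors, which both can raise cyclic AMP. Their doses differ, 50 nM against 10 µM, so the values in the presence of LPS are a comparison of these doses only. The difference of LPS plus ISO minus LPS plus PGE2 at 4 h was 0.11 for Ifnb1 (-1.71 to 1.93), 0.15 for Irf1 (-0.71 to 1.00), 0.14 for Irf7 (-0.24 to 0.51), 0.07 for Irf8 (-0.25 to 0.40) and -0.04 for Irf9 (-0.30 to 0.23). No member was called at any time, with 0.0% of all genes called. At an unadjusted limma p under 0.05 there were 0 members, beside 128, 168 and 154 of the 10518 genes at 1, 2 and 4 h. Subtracting both single-treatment responses from that of the combination left no member called (0.0, 0.00951 and 0.0856% of all genes with ISO at 1, 2 and 4 h and 0.0% with PGE2). At an unadjusted limma p under 0.05, 0 members passed. Of the 10518 genes, 640, 430 and 471 passed it with ISO and 356, 255 and 233 with PGE2. For Irf8 at 4 h what remained was -0.14 with ISO (-0.54 to 0.26) and -0.32 with PGE2 (-0.72 to 0.08). These remainders may also hold a difference in lipid binding protein, which the labels name for LPS alone only.

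Genes around these factors were read from named lists. Of 30 interferon-stimulated genes under IRF control, 26 were measured. At 4 h 24 were called higher in each LPS-containing treatment, with a median over the list of 2.82 with LPS plus ISO, 2.73 with LPS plus PGE2 and 2.77 with LPS alone, against 0.00 over all genes. With LPS alone the highest were the GTPase genes Gbp2 (4.98) and Gbp3 (4.29), the nucleotide kinase gene Cmpk2 (4.72) and the antiviral gene Ifit3 (4.64). At 2 h 17, 15 and 16 were called higher in that order of treatments, and at 1 h 4, 5 and 4, with 1 lower at 1 h with LPS alone. Over all genes, 7.43 to 9.48% were called in these treatments at 1 h, 13.3 to 15.9% at 2 h and 30.0 to 31.6% at 4 h, the last made up of 14.3 to 15.2% called higher and the rest lower. The earliest with LPS alone were the chemokine genes Cxcl10 (2.52) and Ccl5 (0.79), with Ifit3 (1.97) and Gbp3 (0.63). ISO and PGE2 alone called none of the 26. Over all genes ISO called 0.903, 1.71 and 3.36% at 1, 2 and 4 h and PGE2 0.323, 0.456 and 1.14%. A count of 0 of 26 is near these shares. At an unadjusted limma p under 0.05, 0, 0 and 1 of the 26 passed for ISO and 1, 1 and 0 for PGE2. Of the 10518 genes, 1037, 1092 and 1688 passed that for ISO and 1007, 574 and 1006 for PGE2.

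A list around Toll-like receptor 4 held 10 measured genes: Tlr4, Cd14, Ly96, Traf6, Tbk1, Ikbke, Tank, Myd88, Irak1 and Tirap. Ticam1 (the gene of TRIF), Ticam2 and Traf3 were not measured, so the counts do not read the route from TRIF to IRF3. At 4 h 5 were called higher and 1 lower with LPS plus ISO, 6 and 1 with LPS plus PGE2, and 5 and 1 with LPS alone. Beside them, 30.0, 31.6 and 30.7% of all genes were called, with 14.4, 15.2 and 14.3% higher. Tlr4 itself fell with LPS alone (-0.54, -0.93 and -0.58 at 1, 2 and 4 h). Ikbke, the inducible kinase upstream of IRF3, rose to 1.52 with LPS plus ISO, 1.49 with LPS plus PGE2 and 1.43 with LPS alone at 4 h. The adaptor gene Myd88 (1.09) and the kinase gene Tbk1 (0.59) were also higher with LPS alone at 4 h.

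Of 10 measured genes of the interferon receptor and its STAT signalling, 6 were called higher and 1 lower at 4 h with LPS plus ISO, 7 and 2 with LPS plus PGE2, and 6 and 2 with LPS alone, beside the same shares of all genes. With LPS alone they included the feedback inhibitors Usp18 (3.05) and Socs1 (2.34) and the factors Stat2 (2.60) and Stat3 (1.45). Ifnar1, a chain of the type I interferon receptor, was called higher with ISO alone at 1, 2 and 4 h (0.22, 0.36 and 0.29) and with PGE2 alone at 2 and 4 h (0.24 and 0.25).

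Of the 11 other interferon genes measured, at most 1 was called against medium in any treatment and time. With LPS alone Ifna9 was called at 1 h (-0.39), 1 of 11 and near the 9.48% of all genes called there. At 4 h Ifna9 was called with LPS plus ISO (-0.26), beside 30.0% of all genes. Ifna4 was called with LPS plus PGE2 at 4 h (0.27), beside 31.6%. Interferon alpha genes are near-identical copies, so a probe may read several of them, and these probes gave a value other than 0 on 10 to 86 of 88 arrays. Of 8 measured genes that regulate IRF proteins, 3 were called in each LPS-containing treatment at 4 h, all higher. Beside them, 14.3 to 15.2% of all genes were called higher and 30.0 to 31.6% in either direction. With LPS alone they were Trim21 (2.84), Batf2 (2.52) and Spi1 (0.48). Trim21 also stands on the list of interferon-stimulated genes.

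Among 648 genes measured on at least 50% of arrays with a group mean of at least 1 in size, the patterns over the 15 group means most like that of Irf7 were those of Trafd1 (r = 0.997), Uba7 (0.996), H2-T22 (0.995), H2-T9 (0.994) and Dennd6b (0.993). Those most like Irf1 were Cxcl11 (0.990), Lce1d (0.989), Saa3 (0.988), Reln (0.984) and Gch1 (0.980). For Ifnb1 they were Slfn2 (0.980), Map3k8 (0.977), Ralgds (0.976), Mrpl52 (0.974) and Myc (0.972). The 15 means share arrays and sets across genes, so these correlations are a description.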

How the data were processed

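Per the labels, total RNA of treated RAW 264.7 cells and of medium cells was hybridised on custom Agilent 2-colour arrays with dye swaps, 88 arrays in all. The authors deposited 1 log2 ratio per probe and array. How it was background corrected and normalized is not given in the sources read, and no channel intensities were used. Of 16281 probes, 13738 had 1 gene symbol in the platform annotation, 52 had several and 2491 were unlisted. Entrez identifiers gave 13216 probes a current symbol. After 478 probes at 0 on every array were left out, 13260 probes gave 10518 genes by averaging. Ratios were turned to treated over medium, dye-swap pairs averaged, and 15 groups fitted in limma 3.58.1 (R 4.3.3), two-sided, with 29 residual degrees of freedom and Benjamini-Hochberg adjustment over all genes. The labels do not say whether medium RNA was prepared for each set, so its spread may be left out. The number of sets limits the precision.

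The members and lists were chosen with earlier results of these data known. Every member is named. Lists name up to 4 called genes with the largest absolute log2 ratio, and likeness takes 5 genes by Pearson r. Lists of markers for 6 cell types were also read. Same-numbered sets of LPS-containing groups correlated at 0.20 to 0.77 in all 27 pairs within a time (deviations from group means), so the number pairs those sets. The fit was tested on simulated data. Alternatives were a replicate block, a fit on the compared groups alone, zeros as missing, either dye orientation, another centring, 1 probe per gene, a filter on genes often at 0 and each set left out. Tables and figures used Python 3.11.15 with pandas 2.3.3 and matplotlib 3.10.9.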

Additional observations from a re-analysis of the deposited data

Results flagged for a closer look

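The response of a member differed between times in 11 instances, each by limma's test of the 4 h minus 2 h difference over all genes. With LPS plus ISO the differences were 1.47 for Irf1 (limma adjusted p = 0.0175), 1.40 for Irf7 (1.28e-06), 1.32 for Irf8 (2.4e-07) and 0.59 for Irf9 (0.00154). With LPS plus PGE2 they were 1.53 for Irf1 (0.0133), 1.31 for Irf7 (4.17e-06), 1.29 for Irf8 (4.48e-07) and 0.57 for Irf9 (0.00235). With LPS alone they were 1.41 for Irf7 (1.03e-06), 1.42 for Irf8 (5.14e-08) and 0.55 for Irf9 (0.00356). Irf1 with LPS alone had a like difference that was not called (1.16, adjusted p = 0.0739), and whether it differs from the combinations was not tested. It was called without set 3 of LPS at 2 h (0.0343) or set 1 at 4 h (0.0334). The Irf1 difference with LPS plus ISO was lost without set 2 at 2 h (0.188), without set 2 or 3 at 4 h (0.0901 and 0.0751) and on arrays with treated RNA in Cy5 alone (0.111). With LPS plus PGE2 it was lost without set 1 or 2 at 2 h (0.11 and 0.0784) and without set 2 or 3 at 4 h (0.0753 and 0.0602).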

How the results depend on the processing

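Of 4560 recomputed member values, 4441 kept their side of the threshold, 87 lost and 31 gained a call. In 1 the direction reversed (Irf2 with LPS plus PGE2 at 4 h, -0.0031 with treated RNA in Cy3 only). Direction was compared only for values called in at least 1 of the 2 settings. Most values were uncalled in the fit used above and had no call to lose, so the total does not measure how firm the calls are. The fit on the compared groups alone gave 38 of the 87 losses. Zeros as missing and centring each kept all 320. Taking 1 probe per gene cannot move a member's ratio, since each has 1 probe. The planned replicate block kept 319 and added Irf5 with LPS plus PGE2 at 4 h (limma adjusted p = 0.0499). Calls against medium summed over times were 12 with LPS plus ISO, 10 with LPS plus PGE2, 11 with LPS, 1 with ISO and 1 with PGE2. With only the compared groups in the fit they were 1, 1, 3, 0 and 0, and those of time differences were 0 with LPS plus ISO and 1 with LPS plus PGE2, against 4 and 4. A replicate block within time, chosen after seeing the data, gave 3 with ISO, 1 for each combination against LPS, and 5 and 7 time differences with LPS and LPS plus ISO. It removes spread between sets, so p against medium is too small there. Treated RNA in Cy3 only gave 2 with ISO. Leaving out each set in turn gave 8 to 12 with LPS plus ISO, 7 to 11 with LPS plus PGE2, 9 to 11 with LPS, 0 to 1 with PGE2, and 3 to 4, 3 to 4 and 2 to 4 time differences with LPS plus ISO, LPS plus PGE2 and LPS. Over all genes, the fit on the compared groups alone called 1, 16 and 474 with LPS plus ISO at 1, 2 and 4 h (against 781, 1457 and 3156), 0, 0 and 757 with LPS plus PGE2 (808, 1395 and 3327), 5, 131 and 1461 with LPS (997, 1671 and 3228) and 0 with either agent alone. The block within time called 1818 and 2349 with LPS plus ISO at 1 and 2 h, 1781 and 2263 with LPS plus PGE2, 2074 and 2610 with LPS, 540, 564 and 1178 with ISO at 1, 2 and 4 h (95, 180 and 353) and 435, 180 and 573 with PGE2 (34, 48 and 120). Against LPS at 4 h it called 53 with LPS plus ISO and 50 with LPS plus PGE2, the planned block 18 and 10, and the unblocked fit 10 and 3. Treated RNA in Cy5 only called 187, 501 and 1020 with ISO and 70, 313 and 448 with PGE2, and in Cy3 only 150 and 572 with ISO at 1 and 4 h and 118 and 268 with PGE2 at 1 and 2 h. Between 4 and 2 h the fit on the compared groups called 79, 116 and 516 with LPS plus ISO, LPS plus PGE2 and LPS (1164, 1110 and 1161), and the block within time 2145, 2006 and 1975. Dim probes limit what can be seen, since signal over background was not analysed here.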

Other observations

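Irf4, a lymphoid and myeloid relative outside the named list, was singled out after its values were seen. Its mean log2 ratios at 1, 2 and 4 h were 0.46, 2.64 and 1.65 with LPS plus ISO, 0.58, 1.74 and 1.59 with LPS plus PGE2 and 0.44, 1.66 and 1.02 with LPS alone. An array of set 1 was listed at 0 with LPS plus ISO at 4 h, with LPS plus PGE2 at 2 and 4 h and with LPS at 4 h. Without these zeros the means at 2 and 4 h were 2.64 and 1.90 with LPS plus ISO, 1.80 and 1.78 with LPS plus PGE2 and 1.66 and 1.18 with LPS. Set 2 read 2.14 at 2 h and 2.58 at 4 h with LPS plus ISO, and 2.22 and 2.71 with LPS plus PGE2. The 2 h difference between LPS plus ISO and LPS alone was 0.98 (95% interval -0.00 to 1.96), and 1.28, 0.50 and 1.17 in same-numbered sets, higher in 3 of 3. It was called neither by limma without pairing nor with the set as a block within time (adjusted p = 0.555).

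At 1 h, set 1 stood apart for several members in 4 of 5 treatments. Irf7 was at -0.56 with LPS plus ISO, -0.45 with LPS plus PGE2, -0.43 with ISO and -0.41 with PGE2 there, but at -0.08 with LPS alone. Irf3 showed -0.45, -0.41, -0.44 and -0.38 in those treatments and 0.08 with LPS alone. The cause was not tested.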
